A study of Mus musculus with 4 samples.

Results

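Dense chains of p63 sites were examined in mouse epidermis. A chain is a run of neighbouring p63 sites on a chromosome in which no gap between sites exceeds 12.5 kb, and it is called dense here when it holds 3 or more sites. The p63 peaks of the alphaKO and WT libraries were pooled, and peaks that overlapped by at least 1 bp were merged into sites. This gave 18127 sites in 13678 chains and single sites. Of these, 893 were dense chains, which held 3265 sites, or 18.01% of all sites (95% Wilson interval 17.5 to 18.6%). A further 2077 chains had 2 sites, and 10708 sites stood alone. The members were thus chosen by the measured positions of the peaks, so their number, their spacing and the presence of several peaks in each are a description and not a result. A site is called shared when it holds peaks of both lists, alphaKO-only when it holds peaks of the alphaKO list alone, and WT-only when it holds peaks of the WT list alone.

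The material was dorsal epidermis of newborn mice (postnatal day 0), taken from animals labelled p63 alphaKO and from wild-type animals. Chromatin was precipitated with the p63 antibody EPR570, which makes the assay a ChIP-seq map of where p63 lay on DNA, with 1 ChIP library per genotype. The sources used here do not say what the alphaKO allele removes, which strain carried it or how many animals entered a library. Input libraries were not used here. Since each genotype had a single library, no difference between genotypes was tested, and intervals cover counting error only. Intervals over sites count each site as independent, although sites of the same chain lie together, so they can be too narrow.

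p63 is a transcription factor of the p53 family that stratified epithelia need in order to form and to keep their basal layer. It is made in several isoforms that differ at both ends of the protein, and the alpha forms carry a long C-terminal tail with a sterile alpha motif. p63 binds as a tetramer to a DNA element built from pairs of short cores, and in keratinocytes it occupies many enhancers far from gene starts, often several at the same gene.

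Both lists contributed to the dense chains. The alphaKO list had 14593 peaks, of which 2441 lay in dense chains (16.7%, interval 16.1 to 17.3%), and the WT list had 10616 peaks, of which 2426 lay there (22.9%, 22.1 to 23.7%). A relative depth index, built from the lowest local background, was 0.898 times as high in alphaKO as in WT. Whether depth bears on the lengths of the lists was not tested. Read totals are not in the peak lists and the control of each call is not stated, so the index need not follow the depth of the ChIP library. Local background above 50 marked repeat-like places for 22 alphaKO peaks and 27 WT peaks, and 2 dense chains held such peaks. The fold printed below is the authors' value for each peak, its pileup over the local background in its own list, and it does not measure a change between the genotypes.

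The promoters printed below were chosen for holding the element sought, so they do not stand for all promoters that a chain site covers. No genome was used here, so sequence was read only from tables of promoters and miRNAs. The RefSeq windows of build GRCm38.p6 cover 250 bases before to 50 bases after a gene's start. They were searched for a form of the p53-family element, C, then A or T, then A or T, then G, repeated after 6 letters. The form is its own reverse complement, so a search of 1 strand covers both. Shown are the 250 bases before the start of 3 genes in dense chains, taken from the 6 promoters that hold the element under a shared site with the highest WT fold. They are Bbc3 (encoding the pro-apoptotic protein PUMA), Cdkn1a (encoding the cell-cycle inhibitor p21) and Krtdap (a keratinocyte differentiation gene), each on the plus strand, with the element in capitals.
Bbc3, chr7:16309333-16309582: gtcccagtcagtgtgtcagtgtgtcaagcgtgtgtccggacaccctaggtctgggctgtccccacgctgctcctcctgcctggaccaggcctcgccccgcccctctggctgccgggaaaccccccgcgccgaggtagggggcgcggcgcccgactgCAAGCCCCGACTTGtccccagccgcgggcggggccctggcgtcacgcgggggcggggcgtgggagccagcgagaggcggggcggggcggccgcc
Cdkn1a, chr17:29090729-29090978: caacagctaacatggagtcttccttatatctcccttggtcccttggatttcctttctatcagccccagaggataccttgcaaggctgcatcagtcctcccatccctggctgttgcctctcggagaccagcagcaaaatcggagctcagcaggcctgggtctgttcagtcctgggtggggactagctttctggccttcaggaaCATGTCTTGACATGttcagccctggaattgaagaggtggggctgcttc
Krtdap, chr7:30787655-30787904: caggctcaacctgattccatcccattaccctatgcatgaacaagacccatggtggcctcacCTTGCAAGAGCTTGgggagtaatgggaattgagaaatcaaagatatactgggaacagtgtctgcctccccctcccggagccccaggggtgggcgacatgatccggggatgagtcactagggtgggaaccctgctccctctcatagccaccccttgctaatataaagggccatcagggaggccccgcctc
In each of these promoters the element lay close to the WT summit, at 3 bp in Bbc3, 6 bp in Cdkn1a and 2 bp in Krtdap. The same measure was 0 bp in Art4, 29 bp in Cbr2 and 255 bp in Tiam1, the other three of the 6 promoters. The folds at the Bbc3 site were 100.8 in alphaKO and 79.7 in WT. At Cdkn1a they were 34.7 in alphaKO and 14.4 in WT, and at Krtdap 10.3 in alphaKO and 13.8 in WT.

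Under chain sites in general the element was about as frequent as in promoters at large. It was present in 16 of 253 promoter windows overlapped by a site of a dense chain (6.32%, interval 3.93 to 10.0%), against 6.49% of all 21262 windows. By class, the windows under alphaKO-only sites held it in 0 of 17 cases (interval up to 18.4%), those under shared sites in 11 of 104 (10.6%, 6.01 to 17.95%), and those under WT-only sites in 5 of 132 (3.79%, 1.63 to 8.56%). Windows inside a dense chain but with no site on them held it in 5.37% of 149 cases. The stricter form with CATG at both cores stood in 1 of the 253 windows, that of Cdkn1a, and in 0.701% of all windows. A match of these letters is a description of the window and not evidence of a bound site.

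The chains were mostly small. There were 568 chains of 3 sites, 186 of 4, 83 of 5, 27 of 6, 17 of 7 and 6 of 8. The largest had 9 sites (2 chains), 10, 12, 13 and 20 sites. A chain spanned a median of 13.9 kb (quartiles 9.06 and 18.7 kb), the longest spanned 66.5 kb, and together they covered 13.2 Mb. The median of the mean gap within a chain was 4.81 kb, while neighbouring sites over the whole genome lay a median of 45.1 kb apart. The limit of 12.5 kb did not fall in a natural break: 105 gaps fell up to 0.5 kb below it and 102 up to 0.5 kb above it, the largest used was 12.499 kb and the smallest not used 12.501 kb. Among chains of 5 or more sites, the mean gap was smallest near Vmn1r77 (0.385 kb), near Dsg2 (0.510 kb), near Frmd8 (0.773 kb) and at Junb (1.13 kb). It was largest at Pnrc1 (9.27 kb), Glrp1 (8.86 kb), Nr4a1 with its neighbour Grasp (8.67 kb) and Egfr (8.27 kb). The tight and the wide chains alike mixed shared and single-list sites, with the exception of the chain near Vmn1r77, whose 5 sites were all shared. Chromosomes 1 and 11 held the most chains, 65 each, the X chromosome held 3 and the Y chromosome 0.

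The classes of sites were not in the same proportions inside dense chains as outside. Among the 3265 chain sites, 25.8% were alphaKO-only (interval 24.3 to 27.3%), 48.7% were shared (47.0 to 50.4%) and 25.5% were WT-only (24.0 to 27.0%). Among the 14862 sites outside, 44.9% were alphaKO-only (44.1 to 45.7%), 36.8% were shared (36.0 to 37.5%) and 18.3% were WT-only (17.7 to 18.9%). Over all sites the background shares were 41.5% alphaKO-only, 38.9% shared and 19.6% WT-only. Dense chains therefore held a smaller share of alphaKO-only sites and larger shares of the other classes. The intervals, which count sites as independent, did not overlap. The direction of these differences in share was the same in 15 of 15 other settings of the rule and the peak filter. Read the other way, 11.2% of alphaKO-only sites, 22.6% of shared sites and 23.4% of WT-only sites lay in dense chains, against 18.01% of all sites.

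The composition moved with the size of the chain. The alphaKO-only share was 48.4% for single sites, 36.0% in chains of 2, 30.1% in chains of 3, 23.9% in chains of 4, 20.2% in chains of 5 and 16.9% in chains of 6 or more. The shared class ran the other way over the same sizes, at 34.7%, 42.1%, 46.8%, 49.5%, 50.6% and 53.7%. The WT-only share was 16.9%, 22.0%, 23.1%, 26.6%, 29.2% and 29.4%. Neighbouring sizes from 4 sites upward had overlapping intervals. Intervals also overlapped between 3 and 4 sites for the shared and WT-only classes, and between 2 and 3 sites for the WT-only class. One chain in a repeat-like place near the start of chromosome 9, described further on, supplies 20 of the 402 sites of the largest size class, and without it that class had 17.8% alphaKO-only, 52.9% shared and 29.3% WT-only sites.

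**Figure D1:**
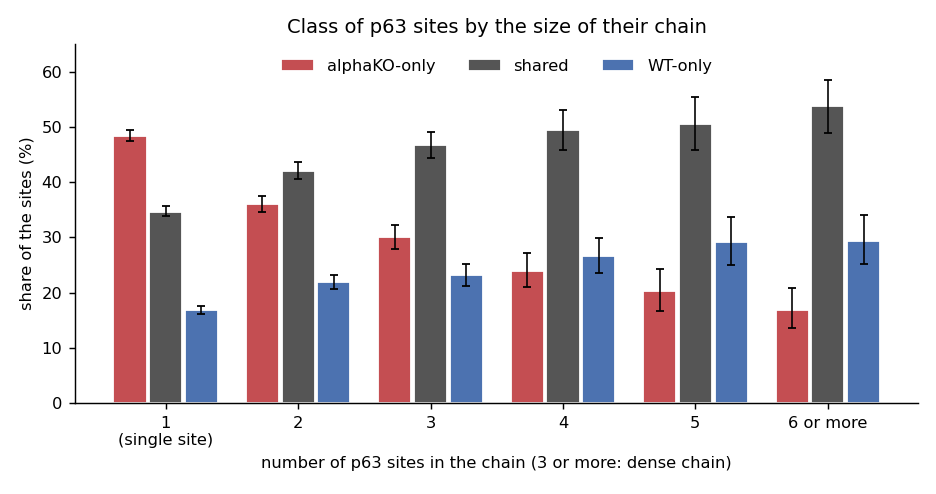
Share of alphaKO-only, shared and WT-only p63 sites (vertical axis, %) by the number of sites in their chain (horizontal axis), with 95% Wilson intervals as error bars. The alphaKO-only share is 48.4% for single sites and 16.9% in chains of 6 or more, and the shared class exceeds it in every size from 2 sites upward.

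Single chains mixed the classes in most cases. Of the 893 chains, 198 held all 3 classes (22.2%), 251 held shared and alphaKO-only sites (28.1%) and 259 held shared and WT-only sites (29.0%). Only shared sites made up 78 chains (8.73%), and 107 chains (11.98%) had no shared site. The chains without a shared site comprised 34 of alphaKO-only sites, 14 of WT-only sites and 59 that held both of these classes. More of the sites were listed in alphaKO in 340 chains and in WT in 341 chains, and the counts were equal in 212.

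Most chains still reached 3 neighbouring sites in a single list, but only a minority did so in each list alone. With the peaks of a single list chained at the same gap, 509 of the 893 chains still held 3 neighbouring sites in alphaKO (57.0%, 53.7 to 60.2%) and 474 in WT (53.1%, 49.8 to 56.3%). In each list alone 221 chains formed (24.7%), 288 formed in alphaKO but not in WT, 253 in WT but not in alphaKO, and 131 (14.7%) only with both lists. The order of the genotypes turned round at equal list lengths: with the alphaKO list shortened to the 10616 peaks of lowest p-value, as many as in WT, 31.6% of the chains formed in alphaKO alone and 69.1% in WT alone. It also turned round with a gap limit of 5 kb (47.2% in alphaKO alone and 56.4% in WT alone). Among chains of at least 4 sites, forming alone required 4 neighbouring sites in the single list, a stricter measure than above. By that measure 42.2% formed in alphaKO alone and 53.2% in WT alone. Shortening the alphaKO list gave chain sites of which 15.8% were alphaKO-only, 43.3% shared and 40.8% WT-only, against 34.4%, 36.2% and 29.5% of the sites outside.

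Where a chain had several sites in both lists, the order of their folds was often alike at the top. Among the 619 chains with 2 or more sites in each list, the site with the highest fold was the same in alphaKO and WT in 438 (70.8%, 67.1 to 74.2%). If each site of a list were equally likely to be its strongest, the same site would come first in both lists at a rate equal to the number of shared sites over the product of the numbers of alphaKO-listed and WT-listed sites, and the mean of this arithmetic level over the chains was 26.0%. In chains of 3 sites the strongest was the same in 75.8% (arithmetic level 31.5%), in chains of 4 in 66.2% (22.5%) and in chains of 5 or more in 63.1% (16.1%). The level takes no account of the higher median folds of shared sites, so the distance from it does not measure agreement between the lists alone. Within a chain with 3 or more folds in a list, the highest fold was a median of 4.09 times the lowest in alphaKO and 3.84 times in WT.

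**Figure D2:**
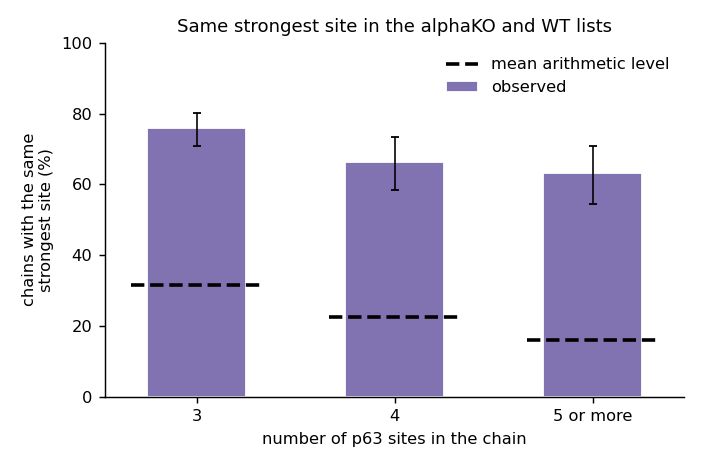
Share of dense chains in which the same site has the highest fold in the alphaKO and WT lists (vertical axis, %), by number of sites (horizontal axis), for chains with 2 or more sites in each list; error bars are 95% Wilson intervals and dashed lines the mean arithmetic level, the number of shared sites over the product of the numbers of sites in each list. Bars stand at 75.8%, 66.2% and 63.1%, each above its line at 31.5%, 22.5% and 16.1%. The level takes no account of the higher median folds of shared sites.

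The strongest site of a chain was usually a shared one. In 449 chains with both shared and alphaKO-only sites, the highest alphaKO fold lay at a shared site in 365 (81.3%, 77.4 to 84.6%), where shared sites made up a mean of 53.9% of the alphaKO-listed sites. In 457 chains with both shared and WT-only sites, the highest WT fold lay at a shared site in 435 (95.2%, 92.8 to 96.8%), where shared sites made up 55.1%. Class depends on which lists called a peak, and single-list sites had lower median folds than shared ones, in dense chains and outside. The shares of 53.9% and 55.1% take sites as equally strong, so they are not a neutral level for this comparison. Over all classes the median fold was 15.5 in dense chains and 15.5 outside them in alphaKO, and 8.56 in dense chains and 8.42 outside in WT. Within classes the alphaKO medians were 11.4 in dense chains and 12.9 outside at alphaKO-only sites, and 20.0 in dense chains and 21.2 outside at shared sites. The WT medians were 11.9 in dense chains and 11.4 outside at shared sites, and 4.85 in dense chains and 4.78 outside at WT-only sites. In chains of 6 or more sites the median over all classes was 13.1 in alphaKO and 7.90 in WT.

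Distances from single-list sites to a shared site of their chain were a few kb. The 12.5 kb limit on gaps keeps them short, so they are a description and not a result. The median distance to the nearest shared site was 6.35 kb for 646 alphaKO-only sites (quartiles 3.24 and 10.3 kb) and 4.88 kb for 686 WT-only sites (2.19 and 8.85 kb). At the 1591 shared chain sites the alphaKO and WT summits were 8 bp apart at the median, and 94.0% were within 100 bp. The median offset outside dense chains was 8 bp as well. Classes differed little between the ends and the middle of a chain: the 1786 end sites were 27.0% alphaKO-only, 47.7% shared and 25.3% WT-only, and the 1479 interior sites were 24.4%, 50.0% and 25.6%.

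Over all classes, dense-chain sites lay closer to genes than the other sites did, though not at the very ends of genes. Within 5 kb of an end of a protein-coding gene were 31.1% of chain sites (29.6 to 32.8%) and 25.6% of sites outside (24.9 to 26.3%), and farther than 10 kb were 55.1% and 64.0%. Within 1 kb the shares were 12.8% (11.7 to 13.96%) in dense chains and 12.6% (12.04 to 13.1%) outside, and 51.6% and 50.1% of summits were inside a gene body. By class, 5.58% of alphaKO-only, 11.3% of shared and 22.9% of WT-only chain sites were within 1 kb of a gene end, against 5.45%, 11.4% and 32.4% of the same classes outside dense chains. The WT-only sites of dense chains were thus less concentrated at gene ends than the other WT-only sites, while the remaining classes did not differ beyond their intervals.

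**Figure D3:**
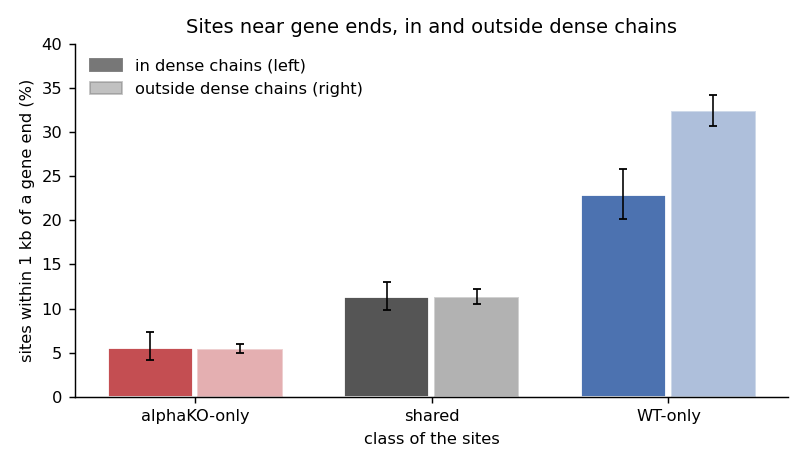
Share of sites within 1 kb of an end of a protein-coding gene (vertical axis, %) for alphaKO-only, shared and WT-only sites (horizontal axis), in dense chains (darker, left) and outside them (lighter, right), with 95% Wilson intervals. WT-only sites stand at 22.9% in dense chains and 32.4% outside, and the other classes are nearly level.

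The difference in composition was seen at each distance from genes, with an exception for the WT-only class close to gene ends. Of sites over 10 kb from a gene end, those in dense chains were 29.4% alphaKO-only, 50.2% shared and 20.4% WT-only, and those outside were 50.4%, 36.2% and 13.4%. Between 1 and 10 kb the values were 25.5%, 48.5% and 26.0% in dense chains and 43.7%, 40.2% and 16.1% outside. Within 1 kb they were 11.3%, 43.2% and 45.6% in dense chains and 19.5%, 33.3% and 47.2% outside, so that the WT-only share there was not higher in chains.

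By position, 363 of the chains held an end of a protein-coding gene (40.6%), 285 lay inside a gene body (31.9%) and 245 overlapped no such gene (27.4%). The WT-only share was 31.5% (29.1 to 34.0%) in chains with a gene end, 19.6% (17.3 to 22.2%) in chains inside a gene body and 22.3% in chains without a gene. The alphaKO-only share was 20.99%, 30.7% and 28.1% in the same order. Shared sites made up 47.5%, 49.6% and 49.7%, a narrow range.

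Genes at dense chains numbered 723 of 21883 protein-coding genes, or 3.3%. They were long, with a median length of 39.9 kb against 17.2 kb for all genes, and the part of length in the counts below was not tested. Lists of epidermal genes were read against the 3.3%. Of 16 genes of desmosomes and cell adhesion 9 were overlapped by a dense chain, as were 9 of 20 basal layer and anchoring genes, 7 of 20 targets of the p53 pathway, 7 of 20 genes of the hair follicle and other appendages, 9 of 30 transcription regulators of the epidermis, 6 of 21 genes of the suprabasal layers and cornified envelope, 6 of 25 genes of Notch, EGF, FGF and TGF signalling and 3 of 14 chromatin regulators. Markers of other cell types, namely 8 of melanocytes, 7 of immune cells, 8 of dermal fibroblasts, 7 of endothelium, 8 of neurons and 8 of liver, had 0 members at a dense chain. At a share of 3.3%, lists of 7 or 8 genes would often hold 0, so these counts are not set apart from the background. The median gene length of those 6 lists ran from 10.2 kb (liver) to 95.9 kb (neurons). The lists were drawn up with earlier results of these data known, and a p63 peak at a gene says nothing of its RNA.

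**Figure D4:**
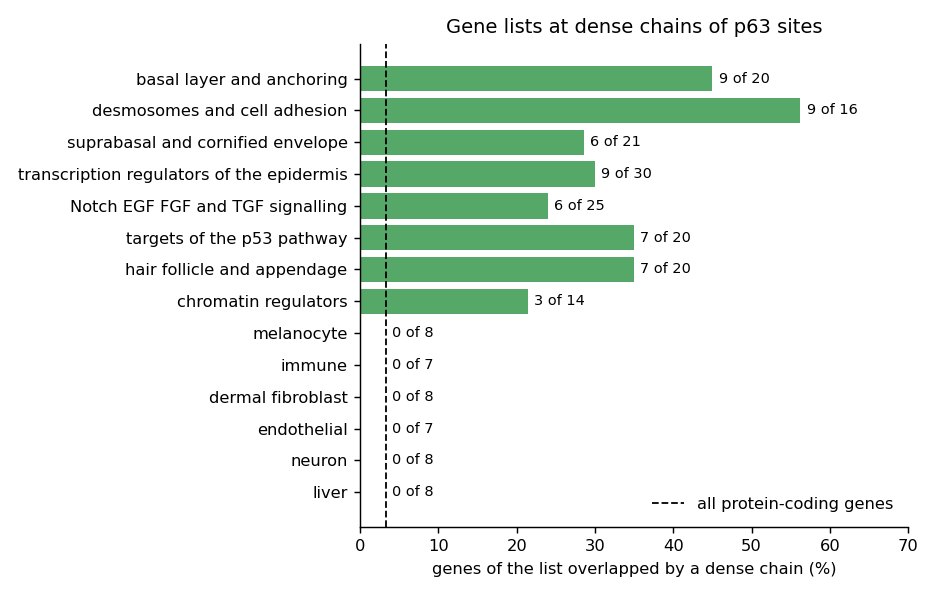
Share of the genes of each list that a dense chain overlaps (horizontal axis, %), with the counts beside the bars; green bars are lists of epidermal genes, the other 6 lists are markers of other cell types, and the dashed line is the 3.3% of all protein-coding genes. The epidermal lists stand between 21.4% and 56.2%. Each of the other lists stands at 0, which lists so short would often show at a share of 3.3%.

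In the basal layer and its anchoring, the largest chain lay at Col17a1, which encodes the hemidesmosome collagen that ties basal cells to the basement membrane. Its 9 sites (chr19:47688500-47731623) were 7 shared and 2 WT-only, and 1 summit lay in the gene and 8 outside it. The folds at its 7 shared sites, in order along the chain, were 12.8, 21.7, 12.3, 53.9, 19.4, 76.6 and 17.99 in alphaKO and 10.7, 15.5, 14.9, 38.8, 7.09, 19.7 and 11.4 in WT. The strongest site thus differed between the lists, 37.5 kb from the start of the chain in alphaKO and 19.5 kb in WT. Itgb4, the hemidesmosome integrin, shared a chain with its neighbour Sap30bp. The 6 sites of this chain were 1 alphaKO-only, 4 shared and 1 WT-only. The strongest had folds of 92.0 in alphaKO and 25.2 in WT, with its summit in the body of Sap30bp.

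Cdh3, encoding P-cadherin of basal and hair follicle keratinocytes, had a chain weighted to the alphaKO list. Its 7 sites (chr8:106508878-106534350) were 4 alphaKO-only and 3 shared. The alphaKO-only folds were 10.9, 5.66, 13.3 and 27.4, and the shared sites had 68.6, 13.03 and 40.9 in alphaKO and 27.3, 8.85 and 22.6 in WT. The outermost site lay 1.78 kb from the gene and the other 6 in its body. The neighbouring Cdh1, encoding E-cadherin, was overlapped by 2 further chains, of 4 sites (1 shared, 3 WT-only) and of 3 sites (2 alphaKO-only, 1 shared), so that this stretch of chromosome 8 held chains of both leanings. The keratin genes of the basal layer had smaller chains: Krt5 had 4 sites (2 shared, 2 WT-only) with highest folds of 46.1 in alphaKO and 17.3 in WT, and Krt14 had 3 shared sites with 52.7 in alphaKO and 26.8 in WT. Dst, the plakin that links keratin to hemidesmosomes, had 5 sites (1 alphaKO-only, 3 shared, 1 WT-only), and Plec, encoding plectin, had 6 (1 alphaKO-only, 2 shared, 3 WT-only).

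Among desmosome genes, Pkp1 had the largest chain outside repeats. Pkp1 encodes plakophilin 1, a plaque protein of suprabasal desmosomes, and its chain of 13 sites (chr1:135883376-135942622) spanned 59.2 kb, with 1 alphaKO-only, 9 shared and 3 WT-only sites. The folds at the shared sites were 9.58, 32.2, 26.9, 32.6, 11.6, 22.6, 12.6, 10.7 and 33.8 in alphaKO and 6.76, 21.2, 17.2, 27.8, 16.5, 16.4, 3.58, 17.96 and 17.7 in WT. Of the 9 shared sites, 5 were above 20 in alphaKO and 2 in WT. That cut is unlike in the lists: over all shared sites of dense chains the median fold was 20.0 in alphaKO and 11.9 in WT, with upper quartiles of 35.9 and 19.5. The alphaKO-only site had a fold of 14.6 and the WT-only sites had 6.28, 6.41 and 3.24. The first 8 sites were in the gene body and the others lay up to 13.8 kb from the nearest gene end.

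The other junction genes had 3 to 6 sites. Nectin1, an adhesion receptor, had 6 sites inside its body (4 shared, 2 WT-only) with highest folds of 59.2 in alphaKO and 48.6 in WT at the same site. Jup, encoding plakoglobin, had 5 sites (4 shared, 1 WT-only; highest folds 62.3 in alphaKO and 35.7 in WT). Perp, a desmosome protein that is also a target of p53 family factors, had 4 shared sites within 5.77 kb, with folds of 12.8, 29.6, 26.9 and 4.97 in alphaKO and 23.8, 10.9, 13.2 and 6.37 in WT. Its site next to the gene end was the third of 4 in alphaKO and the strongest in WT. The summits of that site were at 18845803 in alphaKO and at 18845005 in WT, so its folds belong to different positions. The WT summit was the one 0.066 kb from the gene end. Nectin4 had 4 sites (1 shared, 3 WT-only; up to 43.1 in alphaKO and 62.2 in WT), Cldn4, a tight junction claudin, had 4 (1 alphaKO-only, 3 shared), and Dsp, encoding desmoplakin, had 3 (2 shared, 1 WT-only; up to 78.9 in alphaKO and 57.8 in WT).

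In the suprabasal genes, the Sbsn, Dmkn and Krtdap genes, which lie side by side and encode secreted proteins of differentiating keratinocytes, were covered by the longest chain. It had 10 sites over 66.5 kb (chr7:30750190-30816735), 2 alphaKO-only, 6 shared and 2 WT-only. The shared folds were 23.0, 10.3, 9.32, 45.8, 7.26 and 25.1 in alphaKO and 6.61, 13.8, 6.60, 17.1, 5.64 and 11.6 in WT. The site with 45.8 in alphaKO and 17.1 in WT was the strongest in each list, 4.10 kb from the nearest gene end, and the Krtdap promoter printed above lies under the site with 10.3 in alphaKO and 13.8 in WT. The chain at Sfn, encoding 14-3-3 sigma, and Zdhhc18 had 8 sites within 19.1 kb, 5 shared and 3 WT-only, and its strongest site differed, with 72.2 at 4.18 kb from the chain start in alphaKO and 34.9 at 11.95 kb in WT. Ppl, encoding the cornified envelope protein periplakin, had 4 shared sites (up to 41.9 in alphaKO and 28.3 in WT). Tgm1, the envelope cross-linker, shared a chain of 5 low sites with Rabggta. The highest alphaKO fold of this chain, 11.6, lay in the body of Rabggta, and the highest WT fold, 10.0, in that of Tgm1. Krt10, the suprabasal keratin, had 3 sites (1 shared, 2 WT-only, with up to 53.7 in alphaKO and 30.0 in WT).

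**Figure D5:**
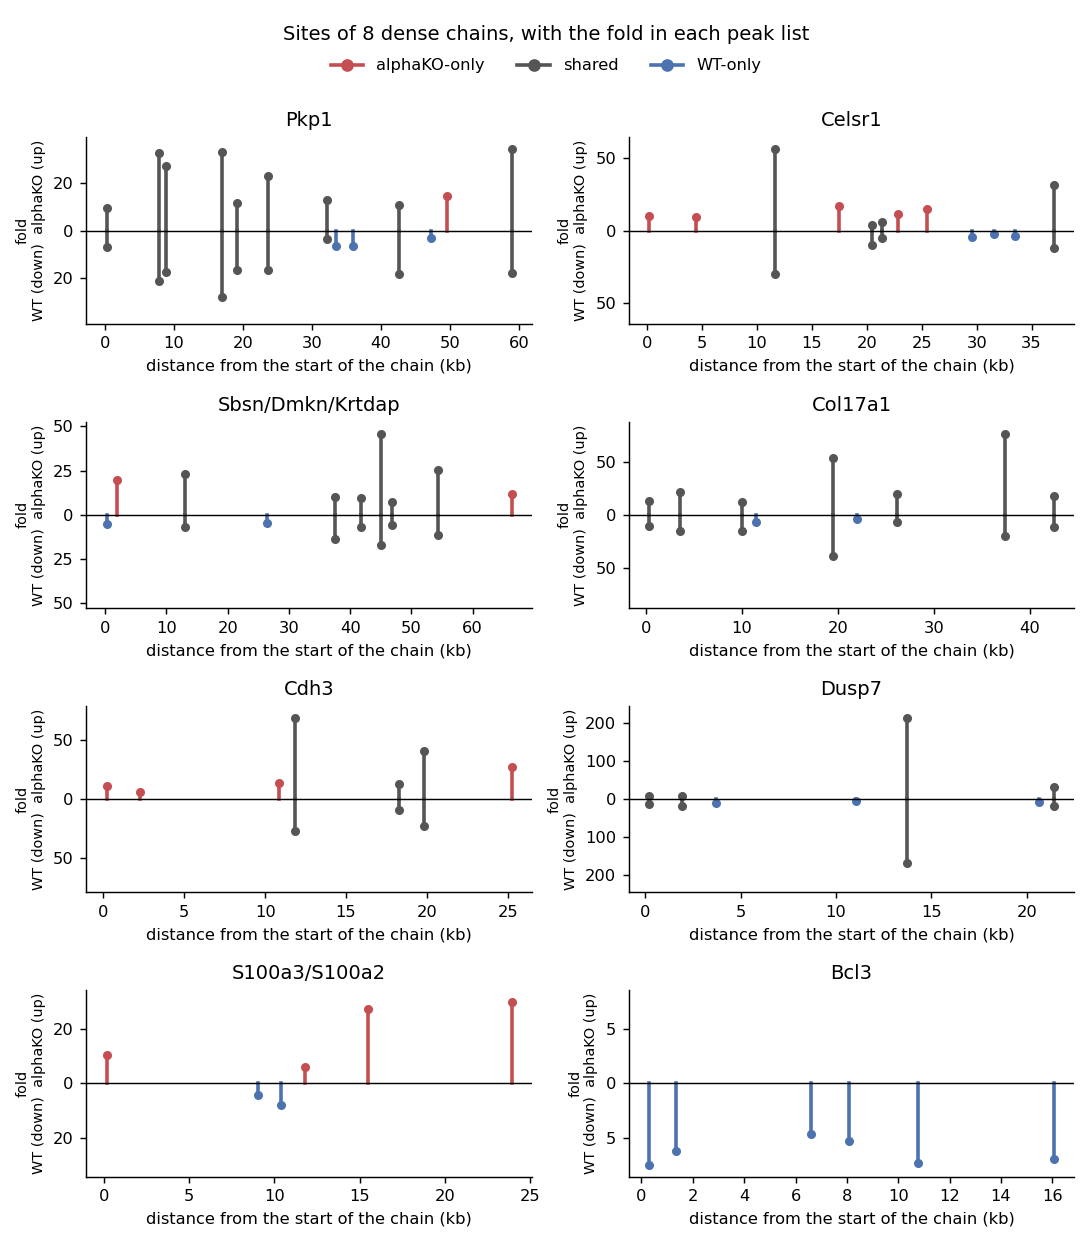
Sites of 8 dense chains by distance from the start of the chain (horizontal axis, kb), with the fold in the alphaKO list drawn upward and the fold in the WT list downward (vertical axis); grey sites are shared, red alphaKO-only and blue WT-only. Pkp1 has 13 sites with folds of up to 33.8 in alphaKO and 27.8 in WT, and Bcl3 has 6 sites in the WT list only. Dusp7 has a site at 212.8 in alphaKO and 167.4 in WT, and its other 6 reach at most 32.0 in alphaKO and 19.1 in WT.

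Among transcription regulators, the chains split in their leaning. Junb, an AP-1 subunit, shared a compact chain with Prdx2, with 6 sites (5 shared, 1 WT-only) within 11.9 kb and folds of at most 11.0 in alphaKO and 11.4 in WT. Grhl2, a regulator of epithelial junction genes, had 4 sites in its body (1 alphaKO-only, 3 shared), with folds of up to 47.7 in alphaKO and 31.1 in WT at different sites. Hes1, an effector of Notch, had 5 sites (1 alphaKO-only, 2 shared, 2 WT-only), with folds of up to 8.08 in alphaKO and 13.8 in WT at different sites. Id1, an inhibitor of basic helix-loop-helix factors, had 5 sites over 28.6 kb that were all WT-only, with folds of 6.47, 4.19, 4.00, 5.47 and 9.54. Tfap2a, an AP-2 factor, had 4 shared sites (up to 25.6 in alphaKO and 17.5 in WT), Klf4, a barrier regulator, had 3 (1 alphaKO-only, 2 shared), and Grhl3 had 3 (2 shared, 1 WT-only; up to 46.6 in alphaKO and 25.8 in WT).

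Trp63, the gene of p63 itself, was not at a dense chain. It had 5 sites in its 208 kb body, 4 shared and 1 WT-only, and at most 2 of them lay within the allowed gap. Those 2 sites had folds of 66.3 and 100.3 in alphaKO and 38.5 and 109.6 in WT. The nearest gap above the limit was 13.8 kb. A chain of 5 sites, 3 shared and 2 WT-only, began 42.2 kb beyond the gene, next to P3h2.

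In signalling, Dusp7, a phosphatase of ERK kinases, held the site with the highest WT fold in any dense chain. That site, at 13.7 kb from the chain start and inside the gene, had 212.8 in alphaKO and 167.4 in WT. The other 6 sites of this chain (chr9:106357568-106379197) were 3 shared, with 8.13, 8.74 and 32.0 in alphaKO and 12.4, 19.1 and 18.5 in WT, and 3 WT-only, with 10.6, 5.41 and 8.24. Egfr, the EGF receptor, had 5 sites in its body (3 shared, 2 WT-only), with folds of up to 23.3 in alphaKO and 13.1 in WT at different sites. Epgn, an EGF receptor ligand, lay in a chain with Mthfd2l of 1 shared and 4 WT-only sites, among them the WT-only site with the highest fold of any in a dense chain, 19.6. Bmp7, a bone morphogenetic protein, had 5 sites (3 shared, 2 WT-only; up to 44.0 in alphaKO and 40.1 in WT).

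The 7 chains at targets of the p53 pathway held 3 alphaKO-only, 19 shared and 7 WT-only sites. Cdkn1a had 5 sites (chr17:29078800-29097444), 3 shared with folds of 21.6, 34.7 and 7.50 in alphaKO and 25.9, 14.4 and 12.7 in WT, and 2 WT-only with 4.57 and 4.59. The strongest site was the promoter in alphaKO and a site 11.9 kb from the gene in WT. Bbc3, in a chain with Ccdc9, had 4 sites, 2 shared with 18.1 and 100.8 in alphaKO and 10.1 and 79.7 in WT, and 2 WT-only with 6.58 and 3.76. Here the strongest site was the same in each list. Phlda3, an inhibitor of Akt, had 5 sites (1 alphaKO-only, 4 shared; up to 56.2 in alphaKO and 38.7 in WT), Btg2 had 4 (2 shared, 2 WT-only) and Fas, the death receptor, had 4 (1 alphaKO-only, 3 shared). Pmaip1, encoding the apoptosis protein Noxa, had 3 sites, 1 of each class.

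Genes of hair follicles and other appendages had chains of 3 to 6 sites. Dlx3 and Dlx4, homeobox genes of ectodermal appendages, shared a chain of 6 sites over 35.4 kb (1 alphaKO-only, 3 shared, 2 WT-only; 31.1 in alphaKO and 41.7 in WT at the highest). Wnt10a, a Wnt ligand of skin appendages, had 4 sites (3 shared, 1 WT-only, with up to 99.8 in alphaKO and 56.9 in WT). Foxn1, the gene affected in nude mice, shared a chain of 3 sites with Slc13a2 (2 shared, 1 WT-only, with up to 70.6 in alphaKO and 31.3 in WT). Edar, the ectodysplasin receptor, had 4 sites (1 alphaKO-only, 2 shared, 1 WT-only; up to 18.3 in alphaKO and 12.6 in WT). Of the chromatin regulators, Kdm6b, a histone demethylase, had 4 sites (1 shared, 3 WT-only; up to 14.1 in alphaKO and 16.9 in WT), Bptf, a remodeller subunit, had 4 (2 alphaKO-only, 1 shared, 1 WT-only; up to 85.8 in alphaKO and 44.2 in WT), and Dnmt1, the maintenance DNA methyltransferase, had 3 with none shared (2 alphaKO-only, 1 WT-only; up to 13.8 in alphaKO and 7.73 in WT).

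Counted over lists, the sites of the chains at desmosome and adhesion genes were 12.2% alphaKO-only, 61.2% shared and 26.5% WT-only (49 sites in 10 chains). Those at genes of the basal layer and anchoring were 15.7%, 60.8% and 23.5% (51 sites in 9 chains). At targets of the p53 pathway the shares were 10.3%, 65.5% and 24.1% (29 sites in 7 chains). The sites were 7.69% alphaKO-only, 57.7% shared and 34.6% WT-only at suprabasal genes (26 sites in 6 chains), 13.5%, 56.8% and 29.7% in the same order at transcription regulators (37 sites in 9 chains), and 19.2%, 57.7% and 23.1% at hair follicle and appendage genes (26 sites in 7 chains). Signalling genes had 6.90%, 48.3% and 44.8% (29 sites in 6 chains), and chromatin regulators 36.4%, 18.2% and 45.5% (11 sites in 3 chains). Against the 25.8%, 48.7% and 25.5% of all chain sites, the alphaKO-only share was lower in 7 of the 8 lists and higher at chromatin regulators, but the counts were small. The interval of that share reached 24.2% at desmosome and adhesion genes, 28.0% at basal layer genes and 26.4% at p53 targets. The WT-only share at signalling genes had an interval of 28.4 to 62.5%, and that at chromatin regulators 21.3 to 71.99%.

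Celsr1, a planar cell polarity cadherin that orients hair follicles, had the chain with most alphaKO-only sites. Its 12 sites (chr15:86004618-86042051) were 5 alphaKO-only, 4 shared and 3 WT-only. The alphaKO-only folds were 10.1, 9.62, 17.3, 11.2 and 14.7, all in the gene body, and the WT-only folds were 4.70, 2.24 and 3.94, all within 3.86 kb of the gene end on either side. The classes were thus ordered along the chain, with the WT-only sites side by side. The strongest site, with 56.3 in alphaKO and 30.3 in WT, was shared and lay in the body. Lrp4, with its neighbour 1110051M20Rik, had 4 alphaKO-only sites with 9.81, 10.7, 25.3 and 21.4 around a shared one with 13.6 in alphaKO and 6.67 in WT. Arhgap42 had 4 alphaKO-only sites, with 8.34, 24.99, 14.5 and 13.6, and 1 shared site with 33.4 in alphaKO and 15.9 in WT, all in its body.

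The 5 largest chains without a shared site, Id1 among them, had WT folds of at most 9.54. The chains at Bcl3 and at S100a3 and S100a2 had 6 sites each. Bcl3, a coactivator of the NF-kB pathway, had 6 WT-only sites (chr7:19816225-19832490) at 7.49, 6.25, 4.65, 5.29, 7.30 and 7.02. The alphaKO list had no peak at any of the 6. S100a3 and S100a2, calcium-binding proteins of keratinocytes and hair, had a chain with 4 alphaKO-only sites at 10.3, 6.04, 27.5 and 29.8 and 2 WT-only sites at 4.14 and 8.05. The chain at Ttc21a and Csrnp1 had 1 alphaKO-only site at 25.3 and 4 WT-only sites of at most 6.76. A chain 240 kb from the nearest protein-coding gene, Actl7b, had 1 alphaKO-only site at 13.6 and 4 WT-only sites of at most 7.35.

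Chains made of shared sites alone had at most 5 sites. The chain inside Efcab1 had 5, with folds of up to 80.8 in alphaKO and 46.2 in WT at different sites. Anxa2, encoding a membrane-binding annexin, had 5, up to 24.96 in alphaKO and 11.9 in WT. A chain 20.9 kb from Ggta1 had 5, up to 82.2 in alphaKO and 33.1 in WT. A chain 138 kb from the nearest protein-coding gene, Camk1g, had 5, up to 48.1 in alphaKO and 37.0 in WT, and 1 of them overlapped the noncoding gene Mir205hg, host of miR-205. The last such chain, near the vomeronasal receptor gene Vmn1r77, had 5 low sites (4.10 in alphaKO and 5.83 in WT at most) and 2 peaks with a local background above 50.

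The highest folds were not confined to genes with known skin functions. A chain of 3 sites in a region without protein-coding genes, 126 kb from Zmiz1, held the highest alphaKO fold of any dense chain, 285.3, at a shared site with 124.5 in WT. The sites on either side of it were alphaKO-only, with 11.5 and 36.3. Sncg and Mmrn2 shared a chain of 3 sites with 191.9 in alphaKO and 90.5 in WT at its highest site, and Adamts14, a metalloproteinase gene, held a site with 189.0 in alphaKO and 38.3 in WT in its body. Gltp, a glycolipid transfer protein gene, had 5 sites with at most 76.5 in alphaKO and 95.6 in WT, and a chain of 3 sites 23.8 kb from Egfl7 had at most 77.4 in alphaKO and 91.4 in WT. A chain of 9 sites over Gm3417, 9030025P20Rik, Gm3448 and Gm3435 had shared sites with 16.1, 177.5, 18.3 and 111.6 in alphaKO and 10.5, 75.2, 9.35 and 52.3 in WT. The low and high folds alternate along it, and these neighbouring predicted genes may share reads if their sequences are alike, which was not tested.

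The remaining large chains were Ripk4, Tspear, Gm50595, Cbarp with 3 neighbours, and a chain at the noncoding gene Neat1. Ripk4, a kinase needed for keratinocyte differentiation, had 8 sites over 42.5 kb (1 alphaKO-only, 6 shared, 1 WT-only), the highest with 40.9 in alphaKO at 32.8 kb from the chain start and with 31.8 in WT at 15.6 kb. Tspear, a gene of hair and tooth development, had 8 sites (6 shared, 2 WT-only), the highest with 25.3 in alphaKO and 32.6 in WT. The chain 0.469 kb from Frmd8 had 8 sites within 12.7 kb, 4 shared and 4 WT-only, of which 5 overlapped Neat1, a nuclear noncoding RNA. The strongest site of this chain, with 79.8 in alphaKO and 49.7 in WT, lay outside Neat1. Gm50595 had 8 sites over 54.1 kb (2 alphaKO-only, 2 shared, 4 WT-only), and Cbarp, Atp5d, Midn and Cirbp shared 8 (1 alphaKO-only, 4 shared, 3 WT-only; up to 26.6 in alphaKO and 26.0 in WT).

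The chain with most sites was of another kind. Its 20 sites (chr9:3000312-3038179) were 14 shared and 6 WT-only, but their folds were between 1.08 and 1.58 in alphaKO and between 1.10 and 1.66 in WT. All of its 34 peaks had a local background above 50, with a median of 8190, and the nearest protein-coding gene, Alkbh8, was 297 kb away. Without it the classes of all chain sites were 26.0% alphaKO-only, 48.6% shared and 25.4% WT-only, so it hardly moved the shares.

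Of 1005 miRNA hairpins in the RefSeq table, 12 lay in a dense chain. Mir203 was singled out after its values were seen, because miR-203 is known to repress p63 as keratinocytes leave the basal layer. Its hairpin (chr12:112130880-112130955, plus strand) lay in the Aspg chain of 3 shared and 2 WT-only sites, 0.186 kb from the summit of a shared site with folds of 5.84 in alphaKO and 15.4 in WT. That site was the strongest of the chain in WT, and another shared site, with 11.0 in alphaKO and 10.3 in WT, was the strongest in alphaKO. The mature strand is given with its seed, bases 2 to 8, in capitals.
miR-203-3p: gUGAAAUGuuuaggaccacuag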

How the data were processed

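p63 ChIP-seq of epidermis was analysed from 1 deposited peak list per genotype. Bowtie2, MACS2 2.1.1.20160309 and mm10 are named in the submitters' processing notes; the caller's options, its controls and the treatment of duplicates are not stated there. Each deposited row holds, per the file headers, a peak's position and summit, its pileup (coverage signal), its fold (ratio of pileup to local background) and −log10 of its p-value and q-value. Read depth is unknown; subtracting 1 from (pileup + 1)/fold returned the local background, and the lowest background over the narrowest peak width gave the depth index. Peaks of the lists were pooled, merged by overlap and chained as described, with 95% Wilson intervals and no test. The arithmetic level for the strongest site was planned as 1 over the number of sites; the formula used also allows for sites in 1 list only.

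Genes came from RefSeq GRCm38.p6 without strand or exons, so distances are to either gene end; 17491 of 21883 protein-coding genes had a promoter window. A chain takes the names of the protein-coding genes it overlaps, or of the nearest one. Named are the 12 chains with most sites, the 5 with the highest fold in each list, the 5 largest with shared sites only and without one, the 5 with most alphaKO-only and most WT-only sites, the 4 with the smallest and largest mean gap, and up to 4 members of each gene list at the largest chains. A chain that this rule takes is not reported here. A few other members of the lists are named as well, chosen after their values were seen. The chains and gene lists were chosen with earlier results of these data known. On 8371 simulated peaks, 644 of 644 planted chains were found. The planted chains stood well apart, so this checks the code only and not the choice of limit. Alternatives changed the gap, the fewest sites, the peak filter and the merging. Tools were matplotlib 3.10.9, SciPy 1.17.1, pandas 2.3.3, NumPy 2.4.6 and Python 3.11.15.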

Additional observations from a re-analysis of the deposited data

How the results depend on the processing

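With 1 library per genotype there is no replicate spread; the class of a site rests on the depth and threshold of each list. Dense chains held a smaller alphaKO-only share and larger shared and WT-only shares than the sites outside in 15 of 15 other settings. No paired analysis was possible because each genotype had 1 library. Of 60 named chains, 19 no longer reached 3 sites at a gap of 5 kb, 11 with folds of at least 5 and 6 with −log10 q of at least 10.

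With a gap limit of 5 kb there were 362 chains with 6.75% of all sites; chain sites were 21.3% alphaKO-only, 51.1% shared and 27.6% WT-only, and 47.2% of chains formed in alphaKO alone and 56.4% in WT alone. Chains held 14.3% of sites at 10 kb and 21.1% at 15 kb. At 25 kb there were 1485 chains with 33.1% of sites, 29.1% alphaKO-only and 46.8% shared; 63.2% formed in alphaKO alone, and the strongest site was the same in 66.6%.

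With at least 2 sites there were 2970 chains (40.9% of sites; 31.5% alphaKO-only, 45.0% shared, 23.5% WT-only), of which 68.2% formed in alphaKO alone. With 4 there were 325 (8.61%; 21.1% alphaKO-only, 50.9% shared, 28.0% WT-only), 42.2% formed in alphaKO alone, and the strongest site was the same in 64.8%. With 5 there were 139 (4.51%; 18.6% alphaKO-only, 52.1% shared, 29.3% WT-only), 34.5% formed in alphaKO alone, and the strongest site was the same in 63.1%. In each of these settings, forming alone required the single list to supply the setting's own fewest sites, so these shares are not like for like.

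With −log10 q of at least 10, chains held 16.0% of sites (27.8% alphaKO-only, 50.6% shared, 21.6% WT-only), and 63.4% formed in alphaKO alone and 48.7% in WT alone. With a fold of at least 5 they held 14.2% (31.9% alphaKO-only, 51.5% shared, 16.6% WT-only), and 69.2% formed in alphaKO alone and 43.9% in WT alone. At equal list lengths they held 16.2% (15.8% alphaKO-only, 43.3% shared, 40.8% WT-only), and 31.6% formed in alphaKO alone and 69.1% in WT alone. Merging summits within 100 bp gave 19.8% (29.3% alphaKO-only, 42.1% shared, 28.6% WT-only), with 51.9% formed in alphaKO alone and 48.3% in WT alone. Merging peaks within 500 bp gave 16.8%. Within 5 kb of a gene end were 31.1% of chain sites, and CATG at both cores stood in 0.395% of the windows. Leaving out Y peaks, peaks of background above 50 or, chosen after seeing the data, the chain near Alkbh8 moved no value beyond its interval. The cause of these movements was not tested beyond what each setting fixes by construction.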
